A study of Mus musculus with 4 samples.

Results

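The genes examined here are the metalloproteases of the ADAM, ADAMTS and MMP families and the TIMP inhibitors in PVAT after vascular injury. They were taken by symbol, as every gene listed by the authors whose name begins with Adam and a digit, Adamts, Mmp and a digit, or Timp and a digit, and they number 45 of 12661 genes. The families hold 14 MMP, 4 TIMP, 11 ADAM, 12 ADAMTS and 4 ADAMTS-like genes, all with coordinates in mm9. The annotation of that build has 83 protein-coding genes with such names, and those outside the 45 were not analysed here. RNA was measured in the outer tissues around the femoral artery (FA) of wild type C57BL/6 female mice, ovariectomized and 11 weeks old by the labels, 48 h after an endovascular injury made with a spring wire of 0.38 mm or after sham operation. Both groups were ovariectomized, each had 2 libraries, and whether a library came from 1 mouse or from several is not given in the sources used here, so p-values measure the spread between these libraries. The tissue consists mainly of PVAT with whatever other cells surround the artery, and all 10 adipocyte marker genes sought, among them *Adipoq* and *Plin1*, are among the genes listed.

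Metalloproteases are zinc-dependent enzymes that cut proteins outside the cell or at its surface. MMPs are made as inactive precursors and cleave collagens, elastin and other matrix proteins, and TIMPs bind their active sites and block them. ADAMs sit in the membrane and release the outer parts of cytokines, growth factors and receptors, while ADAMTS enzymes are secreted and cut proteoglycans, procollagens and other matrix proteins, and ADAMTS-like proteins share their matrix-binding parts without the protease. In the vessel wall and its surroundings these enzymes are known for their part in leukocyte entry, matrix turnover and the movement of smooth muscle cells.

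The promoters of *Mmp12*, *Mmp3* and *Mmp8*, which lie near each other on chromosome 9, and of *Adam8* and *Adamts1* are shown because 4 of these genes changed after injury and *Mmp3*, between *Mmp12* and *Mmp8*, was not called. They are the 250 bases before the RefSeq start (GRCm38.p6), placed on mm9 by an exact match that was single for each. Capitals mark the AP-1 motif TGANTCA, the PEA3 or PU.1 core AGGAAG and the TATA box TATAAA, on either strand.
Mmp12, chr9:7344147-7344396, plus strand: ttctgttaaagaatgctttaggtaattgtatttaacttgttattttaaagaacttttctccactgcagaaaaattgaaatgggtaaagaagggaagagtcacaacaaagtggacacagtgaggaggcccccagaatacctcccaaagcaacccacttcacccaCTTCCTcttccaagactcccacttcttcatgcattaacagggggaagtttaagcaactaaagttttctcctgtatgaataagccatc
Mmp3, chr9:7445572-7445821, plus strand: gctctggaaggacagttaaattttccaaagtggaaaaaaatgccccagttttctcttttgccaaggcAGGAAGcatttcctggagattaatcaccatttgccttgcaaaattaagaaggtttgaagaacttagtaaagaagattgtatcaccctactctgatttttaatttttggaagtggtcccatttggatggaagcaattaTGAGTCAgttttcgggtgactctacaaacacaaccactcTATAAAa
Mmp8, chr9:7558179-7558428, plus strand: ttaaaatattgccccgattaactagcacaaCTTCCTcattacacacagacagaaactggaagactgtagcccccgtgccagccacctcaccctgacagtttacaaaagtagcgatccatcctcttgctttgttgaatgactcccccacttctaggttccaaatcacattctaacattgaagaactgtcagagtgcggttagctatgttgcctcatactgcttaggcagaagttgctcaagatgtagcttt
Adam8, chr7:147178462-147178711, minus strand: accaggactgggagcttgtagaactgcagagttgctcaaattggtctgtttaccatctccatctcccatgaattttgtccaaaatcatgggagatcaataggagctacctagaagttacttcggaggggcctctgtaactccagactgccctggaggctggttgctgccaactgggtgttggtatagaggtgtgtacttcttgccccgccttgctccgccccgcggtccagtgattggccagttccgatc
Adamts1, chr16:85803359-85803608, minus strand: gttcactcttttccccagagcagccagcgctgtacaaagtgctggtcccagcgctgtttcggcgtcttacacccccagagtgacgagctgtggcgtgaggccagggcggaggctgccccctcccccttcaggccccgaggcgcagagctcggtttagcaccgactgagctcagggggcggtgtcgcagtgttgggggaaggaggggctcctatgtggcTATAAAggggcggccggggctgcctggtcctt
The core AGGAAG was found once in *Mmp12*, in *Mmp8* and in *Mmp3*, and in 29.2% of 27025 promoters of the same length and 28.4% of those of genes analysed here. The AP-1 motif was found in *Mmp3*, 46 bases before the start, and in 6.87% of all promoters and 4.32% of the 9586 promoters of genes analysed here. The TATA box was found in *Mmp3*, 7 bases before the start, in *Adamts1*, 32 bases before it, and in 13.0% of all and 6.38% of those of genes analysed here. *Adam8* held none of the 3 motifs in this window. No motif found here overlapped another. Over the 29 members with a RefSeq promoter, 1 held the AP-1 motif, 11 the core AGGAAG and 2 the TATA box. These matches describe letters only.

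Vascular injury was followed by higher values of *Mmp12*, *Mmp8* and *Adam8*, all 3 known from macrophages or neutrophils, and by lower values of the secreted proteases *Adamts8*, *Adamts1* and *Adamts10*. The values are signed and log-like, and 0 is not absence of a transcript. What a gene's values are relative to is not given in the sources used here, so levels were not compared between genes. Differences are injury minus sham in these deposited units and are not fold changes, because the base of the scale is not given in the sources used here. A gene was called when the adjusted p-value of limma with Benjamini-Hochberg adjustment over all 12661 genes was under 0.05. By this rule 6 of the 45 members (13.3%) were called, 3 higher and 3 lower, where 7.43% of all genes were called, 3.76% higher and 3.67% lower. The injury and sham libraries did not overlap in 30 of the 45 members (12 higher and 18 lower), a share of 66.7%, where 61.9% of all genes had such values, 31.6% higher and 30.3% lower. In 20 members the unadjusted p-value was under 0.05, where it was so in 29.5% of all genes. The median difference over the members was -0.16, against 0.01 over all genes, and the median size of the difference regardless of sign was 0.43, against 0.25. A member that was not called is not shown to be unchanged. In bulk tissue, fewer cells of a type and less RNA per cell cannot be told apart. The fits without 1 sham library called none of the members by limma, although 12 of them without sham replicate 1 and 14 without sham replicate 2 had an unadjusted p-value under 0.05. Over all genes, 0 were called without sham replicate 1 (1960 at an unadjusted p-value under 0.05) and 1 without sham replicate 2 (2553 at an unadjusted p-value under 0.05). Without injury replicate 1, 2 members and 284 of all genes were called, and without injury replicate 2, 15 members and 1790 of all genes were. In these 4 fits the difference of 29 of the 39 uncalled members moved by over 1.5 times, and that of 0 of the 6 called members did. The called members were chosen for differences large against the spread of these libraries, so this contrast follows largely from the choice.

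**Figure D1:**
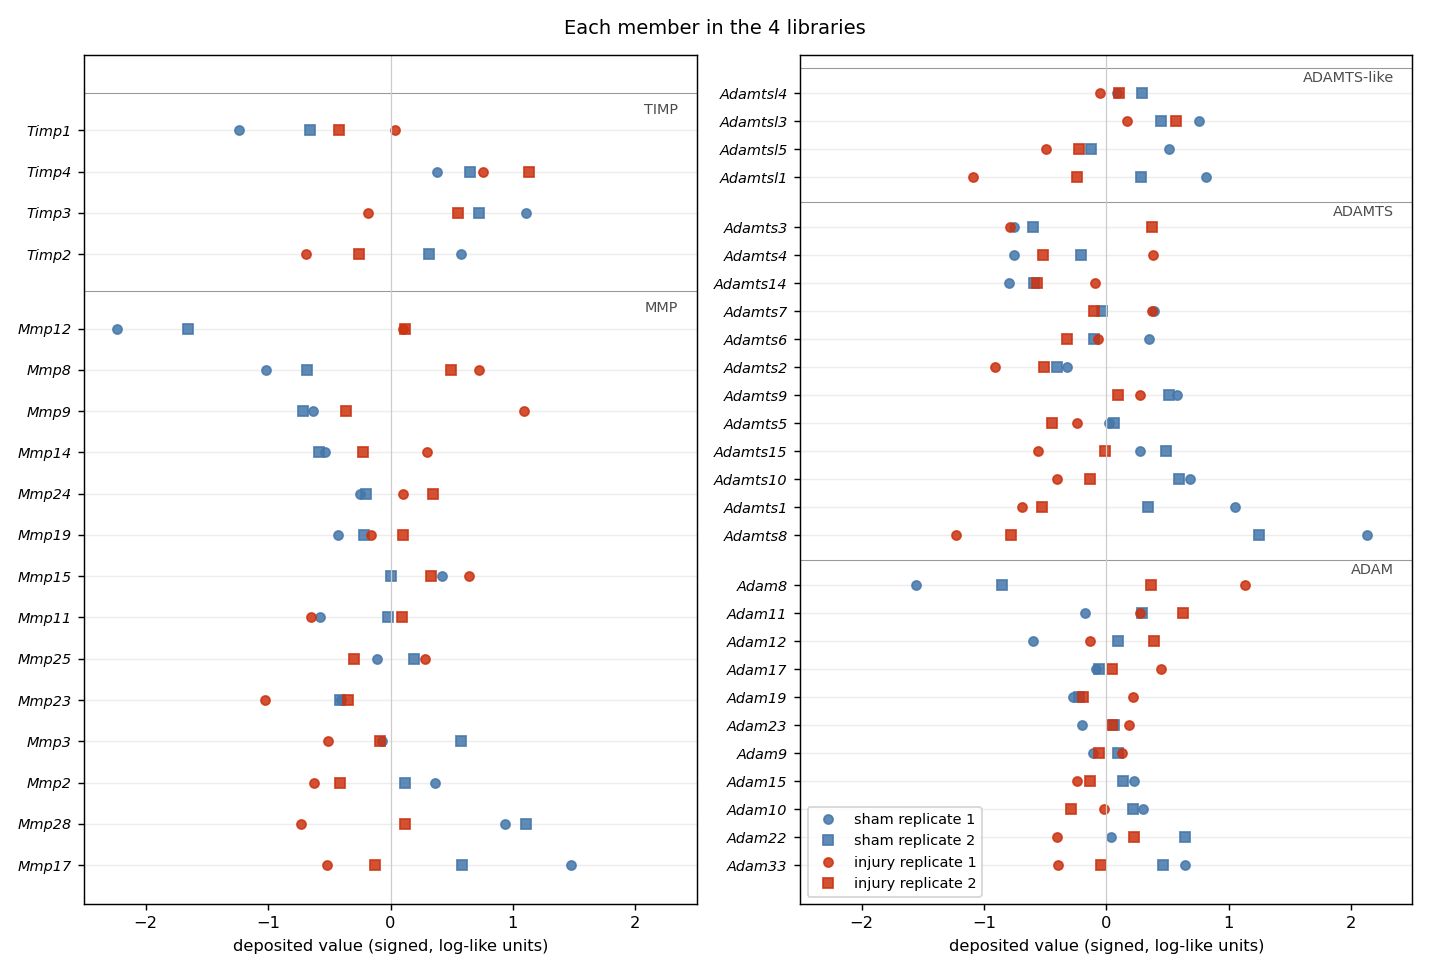
Deposited value of each of the 45 members in the 4 libraries (x axis, signed log-like units), ordered within each family by the difference; circles are replicate 1 and squares replicate 2, blue for sham and red for injury. *Mmp12*, *Mmp8* and *Adam8* have both injury libraries above both sham libraries by more than 1 unit, and *Adamts8* has them below by 2.02 units.

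Among the MMPs, those with the highest differences are known from leukocytes. *Mmp12*, the macrophage elastase (chromosome 9 from 7344381 to 7369499), was at -2.24 and -1.65 after sham operation and at 0.10 and 0.12 after injury. The injury libraries were almost equal, and the lower of them stood 1.76 units above the higher sham library. Its difference was 2.05 (standard error, SE, 0.22, limma adjusted p = 0.0285), which placed it at percentile 99.6 of the differences of all genes. *Mmp8*, the neutrophil collagenase (chromosome 9 from 7558429 to 7568486), was at -1.02 and -0.68 after sham operation and at 0.72 and 0.50 after injury. Its groups were 1.18 units apart, and the difference was 1.46 (SE 0.18, limma adjusted p = 0.0285). Without injury replicate 1 the difference of *Mmp8* was 1.35, and its limma adjusted p of 0.0504 was just over the threshold. Without sham replicate 1 and without sham replicate 2, *Mmp12* differed by 1.76 and 2.34 and *Mmp8* by 1.29 and 1.63, with limma adjusted p-values of 0.176 and 0.113 for both genes. *Mmp9*, the gelatinase of neutrophils and macrophages (chromosome 2 from 164766280 to 164781350), was at -0.63 and -0.72 after sham operation and at 1.09 and -0.36 after injury. Both injury libraries lay above the sham libraries, but they were farther from each other than the lower of them was from sham, and the difference of 1.04 (SE 0.46) missed the threshold (limma adjusted p = 0.202). It became 0.31 when injury replicate 1 was left out and 1.77 when injury replicate 2 was (limma adjusted p = 0.0076).

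Most markers of leukocytes were higher after injury, as were these genes. Of 10 macrophage markers, 9 had both injury libraries above both sham libraries and 1, *Cd163*, had them below, and 6 were called higher, where 31.6% of all genes were higher without overlap and 3.76% were called higher. The list's medians were -1.14 and -1.19 in the sham libraries and 0.36 and -0.22 in the injury libraries. All 6 neutrophil markers analysed, of 12 sought, were higher without overlap, with medians of -1.40 and -0.97 after sham operation and of 1.27 and 0.27 after injury, and 2 were called, *Mmp8* itself, which is on that list, and *Retnlg*. The part of such cells in the values of *Mmp12*, *Mmp8*, *Mmp9* and *Adam8* was not tested. In these lists injury replicate 1 was above injury replicate 2 for all markers that were higher, as it was for *Mmp8*, *Mmp9* and *Adam8*, while *Mmp12* was at 0.10 and 0.12 in the injury libraries.

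The membrane-type MMPs, which are held at the cell surface, did not share a direction, and none of the 5 was called, although 3 had an unadjusted p-value under 0.05, where 7.43% of all genes were called and 29.5% had such a p-value. *Mmp14*, the activator of the MMP2 precursor (chromosome 14 from 55050441 to 55060095), was at -0.53 and -0.58 after sham operation and at 0.30 and -0.23 after injury. These values did not overlap, and the difference was 0.59 (SE 0.21, limma adjusted p = 0.133). With injury replicate 1 left out it fell to 0.33, and with injury replicate 2 left out it was 0.86 and called (limma adjusted p = 0.0314). *Mmp24* was at -0.25 and -0.20 after sham operation and at 0.10 and 0.35 after injury, a difference of 0.45 (limma adjusted p = 0.122). *Mmp17* (chromosome 5 from 130090089 to 130114086) was at 1.48 and 0.58 after sham operation and at -0.52 and -0.13 after injury. Its difference was -1.35 (SE 0.32, limma adjusted p = 0.0636), and with quantile normalization of the columns it was called (limma adjusted p = 0.0477). For *Mmp15* and *Mmp25* the groups overlapped, with differences of 0.28 and -0.05.

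*Mmp2*, the gelatinase made by fibroblasts and other stromal cells (chromosome 8 from 95351227 to 95377316), was at 0.36 and 0.12 after sham operation and at -0.63 and -0.41 after injury. The groups did not overlap, in the opposite direction to *Mmp9*, and the difference of -0.76 (SE 0.16) was close to the threshold (limma adjusted p = 0.0532). With quantile normalization *Mmp2* was called (limma adjusted p = 0.042). *Mmp28*, also named epilysin (chromosome 11 from 83254270 to 83276573), was at 0.94 and 1.11 after sham operation and at -0.73 and 0.12 after injury. Its difference was -1.33 (SE 0.29, limma adjusted p = 0.0549), and without injury replicate 2 it was -1.75 with a limma adjusted p of 0.00796. An uncharacterised gene on the opposite strand overlaps *Mmp28* in the annotation, and whether the counting used strand is not given in the sources used here.

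The stromelysin *Mmp3* (chromosome 9 from 7445822 to 7455972) was at -0.07 and 0.57 after sham operation and at -0.51 and -0.08 after injury. The higher injury library and the lower sham library were only 0.02 units apart, and the difference was -0.55 (SE 0.27, limma adjusted p = 0.237). With 1 library left out it ranged from -0.87 to -0.23. *Mmp3* lies 76.3 kb from *Mmp12* and 102.5 kb from *Mmp8*, with 1 and 2 annotated protein-coding genes between them, so that of the 3 neighbours the outer ones were called higher and the middle one was not called. *Mmp19* had values of -0.43 and -0.21 after sham operation and of -0.16 and 0.10 after injury, a difference of 0.29. *Mmp11* and *Mmp23* had overlapping groups, with differences of 0.02 and -0.27 and limma intervals of 95% from -0.75 to 0.80 and from -0.88 to 0.34. Over the 14 MMPs, 2 were called higher and 0 lower by limma, where 3.76% and 3.67% of all genes were, 7 had an unadjusted p-value under 0.05, where 29.5% of all genes did, and the median difference was 0.15. This median was -0.0048 without sham replicate 1, 0.200 without sham replicate 2, 0.219 without injury replicate 1 and 0.205 without injury replicate 2.

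The TIMPs split into a pair with higher and a pair with lower values after injury. None of the 4 was called by limma, 3 had an unadjusted p-value under 0.05, and in all 4 the groups did not overlap, where 29.5% of all genes had such a p-value and 61.9% did not overlap. *Timp1*, the TIMP best known as induced by cytokines (chromosome X from 20447292 to 20451861), was at -1.23 and -0.66 after sham operation and at 0.04 and -0.42 after injury, a difference of 0.76 (SE 0.26, limma adjusted p = 0.127). The gap between its groups was 0.24, less than the gap within either group. *Timp4*, known from adipose tissue and heart, was at 0.38 and 0.65 after sham operation and at 0.76 and 1.13 after injury, a difference of 0.43 (SE 0.19, limma adjusted p = 0.204). With 1 library left out it ranged from 0.24 to 0.61, and that of *Timp1* from 0.47 to 1.04. *Timp2*, which also takes part with MMP14 in the activation of the MMP2 precursor (chromosome 11 from 118162383 to 118217054), was at 0.58 and 0.31 after sham operation and at -0.69 and -0.26 after injury. Its difference was -0.92 (SE 0.20, limma adjusted p = 0.0546), and with quantile normalization it was called (limma adjusted p = 0.0472). *Timp3*, which binds to the matrix and also inhibits ADAM17 and ADAMTS enzymes (chromosome 10 from 85763117 to 85812251), was at 1.11 and 0.72 after sham operation and at -0.18 and 0.55 after injury. Its difference of -0.73 (SE 0.28, limma adjusted p = 0.161) became -0.36 when injury replicate 1 was left out and -1.10 when injury replicate 2 was (limma adjusted p = 0.0346). *Timp1*, *Timp3* and *Timp4* overlap the synapsin genes *Syn1*, *Syn3* and *Syn2* on the opposite strand. *Syn1* was at -0.64 and -0.87 after sham operation and at 0.50 and 0.03 after injury, in the same direction as *Timp1*. Overlaps were read from whole gene spans, and whether the exons of the 2 genes overlap was not tested. Whether their reads were kept apart in counting is therefore not known. For *Syn2* the groups overlapped. Genes on the opposite strand are also annotated over parts of *Mmp11*, *Mmp12*, *Mmp14*, *Mmp19*, *Adam17*, *Adamts7* and *Adamts9*, and a gene on the same strand over parts of *Mmp11* and *Timp2*.

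**Figure D2:**
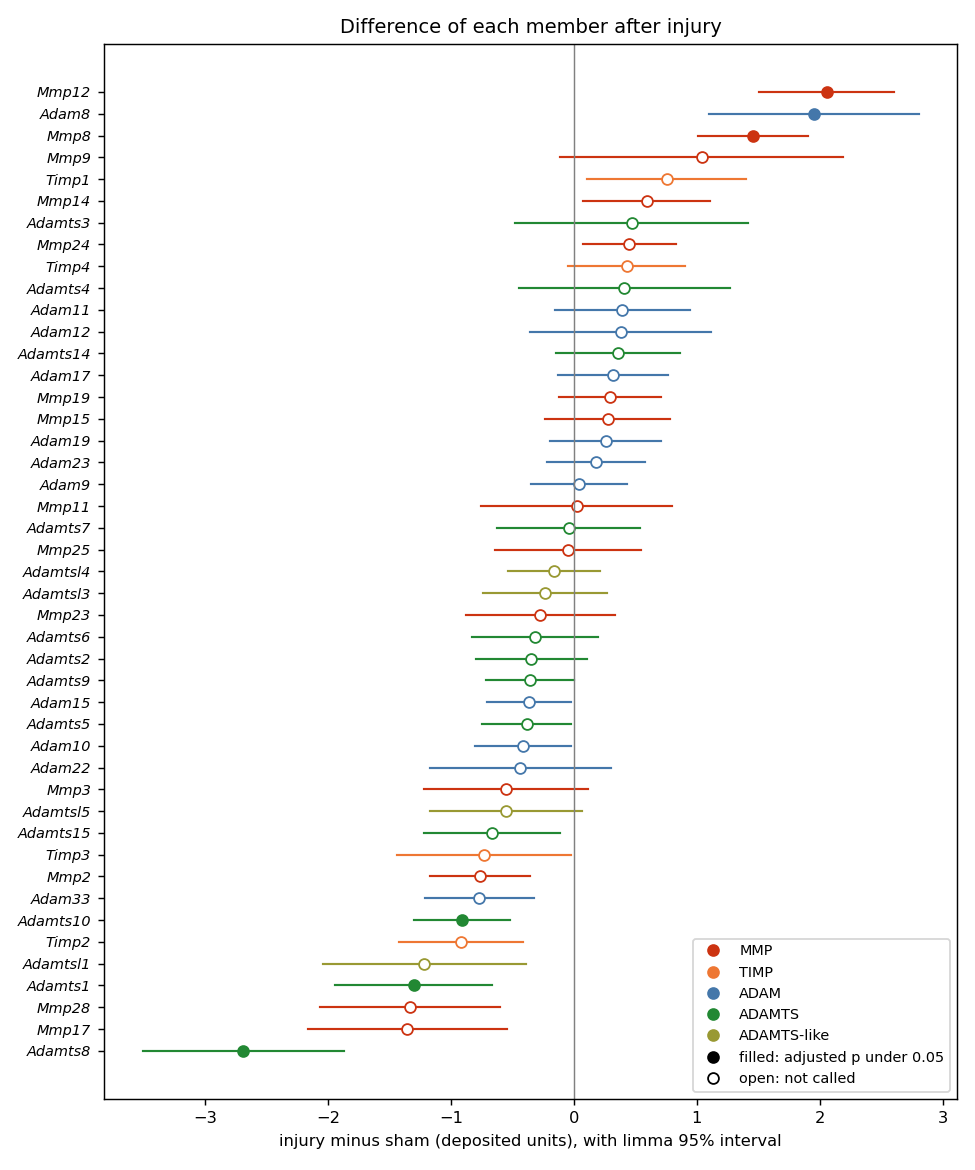
Injury minus sham of the 45 members in deposited units (x axis), with the 95% interval of limma as a line and the colour giving the family; filled points were called at an adjusted p-value under 0.05. The 6 filled points are *Mmp12*, *Adam8* and *Mmp8* on the right and *Adamts10*, *Adamts1* and *Adamts8* on the left, and the lowest difference, -2.69, is that of *Adamts8*.

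Among the ADAMs, *Adam8* stood apart from the others. *Adam8*, a sheddase of leukocytes also known as CD156 (chromosome 7 from 147164831 to 147178461), was at -1.55 and -0.86 after sham operation and at 1.13 and 0.36 after injury. Both injury libraries were above both sham libraries by at least 1.22 units, and the difference was 1.95 (SE 0.34, limma adjusted p = 0.0368). It was 1.60 without sham replicate 1, 2.30 without sham replicate 2 and 1.57 without injury replicate 1, with limma adjusted p-values of 0.194, 0.113 and 0.0702. The next highest difference among the ADAMs was 0.40.

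The best studied sheddases, ADAM10 and ADAM17, differed in direction, and neither was called. *Adam17*, the enzyme that releases TNF-α (chromosome 12 from 21329370 to 21379493), was at -0.08 and -0.06 after sham operation and at 0.44 and 0.05 after injury, a difference of 0.32 (SE 0.18, limma adjusted p = 0.295). Left with only injury replicate 2 it was 0.12, and with only injury replicate 1 it was 0.52. *Adam10*, which acts on Notch receptors among others (chromosome 9 from 70526804 to 70628036), was at 0.30 and 0.22 after sham operation and at -0.02 and -0.29 after injury, a difference of -0.42 (SE 0.16, limma adjusted p = 0.151). *Adam15* also had lower values without overlap, 0.22 and 0.13 after sham operation and -0.24 and -0.14 after injury, with a difference of -0.37 (limma adjusted p = 0.15). *Adam33*, known from mesenchymal cells and smooth muscle (chromosome 2 from 130876327 to 130889550), was at 0.64 and 0.46 after sham operation and at -0.39 and -0.04 after injury. Its difference was -0.77 (SE 0.18, limma adjusted p = 0.0596), and without injury replicate 2 it was -0.95 with a limma adjusted p of 0.0289.

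*Adam19* was higher without overlap by a margin of 0.03, with a difference of 0.26, and *Adam9* and *Adam12* had overlapping groups and differences of 0.04 and 0.38. The ADAMs without protease activity, *Adam11*, *Adam22* and *Adam23*, which are known from nerve tissue, had overlapping groups in all 3 cases and differences of 0.40, -0.43 and 0.18. Over the 11 ADAMs 1 (9.09%) was called, higher, a share near the 7.43% of all genes, and 4 had an unadjusted p-value under 0.05, where 29.5% of all genes did. The median difference was 0.18, and it was 0.035 without sham replicate 1, 0.283 without sham replicate 2 and 0.054 without injury replicate 1.

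The ADAMTS family had its calls in the other direction, with 3 of 12 called lower and 0 higher by limma, where 3.67% and 3.76% of all genes were, 5 at an unadjusted p-value under 0.05, where 29.5% of all genes were, and a median difference of -0.35. Both injury libraries were below both sham libraries in 7 of the 12 and above them in 1, where this was so in 30.3% and 31.6% of all genes. *Adamts8*, which can cleave proteoglycans such as aggrecan (chromosome 9 from 30750147 to 30771423), was at 2.13 and 1.24 after sham operation and at -1.23 and -0.78 after injury. Its groups were 2.02 units apart, and its difference of -2.69 (SE 0.33, limma adjusted p = 0.0285) ranked 3 from the lowest of the 12661 genes. *Adamts1*, a protease of versican and aggrecan (chromosome 16 from 85794072 to 85803358), was at 1.05 and 0.34 after sham operation and at -0.69 and -0.53 after injury. The spread lay in the sham libraries, and the difference was -1.30 (SE 0.25, limma adjusted p = 0.0454). *Adamts10*, known for its link to fibrillin microfibrils (chromosome 17 from 33661149 to 33690727), was at 0.68 and 0.60 after sham operation and at -0.40 and -0.14 after injury, with a difference of -0.91 (SE 0.16, limma adjusted p = 0.0357). Without sham replicate 1 the differences of *Adamts8*, *Adamts1* and *Adamts10* were -2.25, -0.95 and -0.87, with limma adjusted p-values of 0.176, 0.183 and 0.217. Without sham replicate 2 they were -3.13, -1.66 and -0.95, with limma adjusted p-values of 0.113, 0.113 and 0.141. Without injury replicate 1, *Adamts8* was still called (limma adjusted p = 0.049), and *Adamts1* and *Adamts10* had differences of -1.23 and -0.77 with limma adjusted p-values of 0.107 and 0.0797.

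Smooth muscle and endothelial markers were lower after injury as well. All 7 smooth muscle markers analysed, of 8 sought, had both injury libraries below both sham libraries, with medians of 1.72 and 1.03 after sham operation and of -1.39 and -0.20 after injury, and 4 were called, where 30.3% of all genes were lower without overlap and 3.67% were called lower. Of 8 endothelial markers 7 were lower without overlap and 3 were called, with medians of 0.82 and 0.69 after sham operation and of -0.16 and -0.07 after injury. Fibroblast markers numbered 9, of which 5 were lower without overlap and 4 were called lower, and 1, *Pdgfra*, was higher without overlap. Of the 10 adipocyte markers 5 were lower without overlap and 0 higher, and 1, *Plin1*, was called lower. The part of these cells in the lower values of *Adamts8*, *Adamts1*, *Adamts10*, *Mmp2* and *Timp2* was not tested.

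The other proteases of the proteoglycan-cleaving group were *Adamts15*, *Adamts5*, *Adamts9* and *Adamts4*. *Adamts15* (chromosome 9 from 30706740 to 30730037) was at 0.27 and 0.49 after sham operation and at -0.56 and -0.01 after injury, a difference of -0.67 (SE 0.22, limma adjusted p = 0.12). It was -0.39 with injury replicate 1 left out and -0.94 with injury replicate 2 left out (limma adjusted p = 0.0322). *Adamts5*, a major aggrecanase of cartilage (chromosome 16 from 85858415 to 85901370), was at 0.02 and 0.06 after sham operation and at -0.24 and -0.44 after injury, a difference of -0.38 (SE 0.14, limma adjusted p = 0.152). Each of them is the neighbour of a called gene. *Adamts15* lies 20.1 kb from *Adamts8*, and *Adamts5* lies 55.1 kb from *Adamts1*, with no annotated protein-coding gene between, and in both pairs both genes had lower values in both injury libraries. *Adamts9* was at 0.57 and 0.51 after sham operation and at 0.28 and 0.10 after injury, a difference of -0.35. *Adamts4*, an aggrecanase induced by cytokines, differed from the rest of the group in that its mean was higher after injury, but injury replicate 2, at -0.52, lay between the sham libraries at -0.75 and -0.21, and injury replicate 1 was at 0.38.

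The procollagen N-propeptidases *Adamts2*, *Adamts3* and *Adamts14*, which trim the ends of fibrillar procollagens, gave no call and no common direction. *Adamts2* was at -0.32 and -0.40 after sham operation and at -0.91 and -0.51 after injury, a difference of -0.34 (limma adjusted p = 0.266). *Adamts14* was at -0.79 and -0.59 after sham operation and at -0.10 and -0.57 after injury, so that its groups were 0.02 units apart. *Adamts3* was at -0.76 and -0.60 after sham operation, and its injury libraries were at -0.79 and 0.37, 1 below and 1 above both sham libraries. *Adamts6* and *Adamts7* had overlapping groups and differences of -0.32 and -0.04.

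All 4 ADAMTS-like genes had lower means after injury, 2 of them without overlap, and none was called by limma, with 1 at an unadjusted p-value under 0.05. The share without overlap, 50.0%, was below the 61.9% of all genes, and 29.5% of all genes had an unadjusted p-value under 0.05. *Adamtsl1* (chromosome 4 from 85699819 to 86074289) was at 0.82 and 0.28 after sham operation and at -1.09 and -0.24 after injury. Its difference of -1.22 (SE 0.33, limma adjusted p = 0.0813) became -0.79 when injury replicate 1 was left out and -1.64 when injury replicate 2 was (limma adjusted p = 0.0192). *Adamtsl5* had a difference of -0.55 and groups 0.10 units apart. *Adamtsl3* and *Adamtsl4* had overlapping groups and differences of -0.23 and -0.16.

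The size of many differences depended on which injury library was used. Among the 30 members without overlap, injury replicate 1 lay farther from the sham libraries than injury replicate 2 in 23 (76.7%), where this was so in 63.3% of all genes without overlap. Sham replicate 1 lay farther from the injury libraries than sham replicate 2 in 24 of the 30 (80.0%), where this was so in 60.7% of all genes without overlap. Without injury replicate 2, 9 further members were called, *Mmp9*, *Mmp14*, *Mmp2*, *Mmp28*, *Timp2*, *Timp3*, *Adam33*, *Adamts15* and *Adamtsl1*, and in that fit injury replicate 1 is taken to vary like the sham libraries. *Mmp12* had nearly the same difference in both cases, 2.06 without injury replicate 1 and 2.05 without injury replicate 2.

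**Figure D3:**
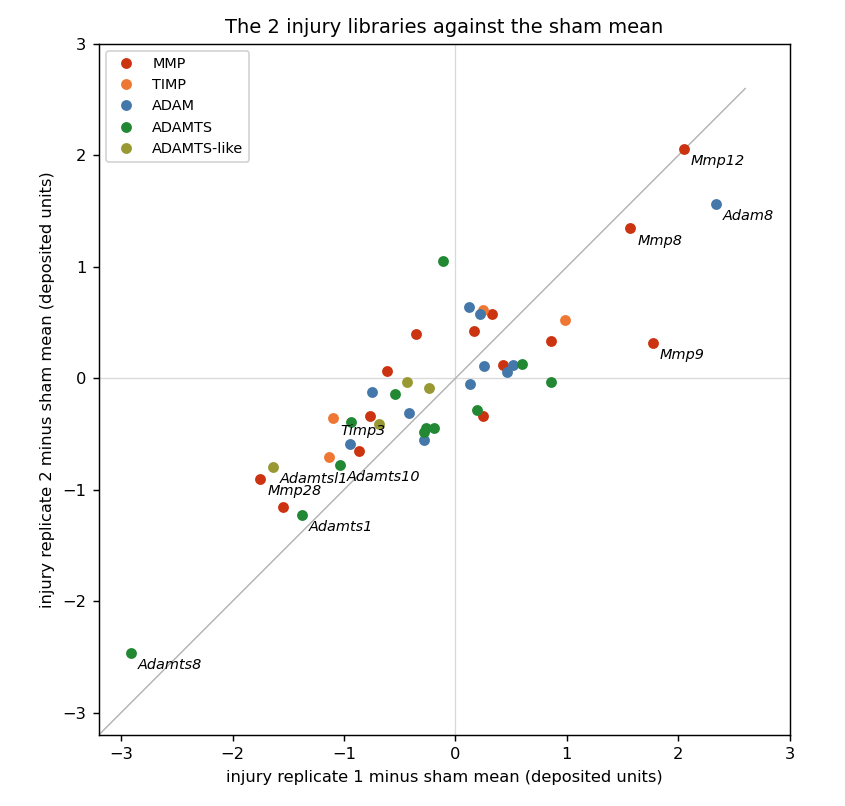
Value of injury replicate 1 (x axis) and of injury replicate 2 (y axis) minus the sham mean for each of the 45 members, in deposited units, coloured by family, with the line of equal values in grey. *Mmp12* lies on the line, and *Mmp9*, at 1.77 and 0.31, lies farthest below it among the genes higher in both libraries.

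Genes known to control metalloproteases were read from the same fit. Of 24 regulators analysed, 4 were called lower and 0 higher by limma, where 3.67% of all genes were called lower and 3.76% higher, and 10 of the 24 had an unadjusted p-value under 0.05. *Reck*, a membrane-anchored inhibitor of MMPs, was at 0.84 and 0.46 after sham operation and at -0.54 and -0.21 after injury, a difference of -1.03 (SE 0.20, limma adjusted p = 0.0461). *Tspan5*, a tetraspanin that carries ADAM10 to the cell surface, was at 0.34 and 0.60 after sham operation and at -0.61 and -0.39 after injury, a difference of -0.97 (limma adjusted p = 0.0368). *Rhbdf1* (iRhom1), a partner of ADAM17, was at 0.36 and 0.47 after sham operation and at -0.32 and -0.42 after injury, a difference of -0.79 (limma adjusted p = 0.0373). *Rhbdf2* (iRhom2), the partner of ADAM17 in immune cells, had the opposite direction, from -0.09 and -0.34 to 0.53 and 0.13, and its difference of 0.54 missed the threshold (limma adjusted p = 0.14). With 1 library left out this difference ranged from 0.34 to 0.75. It was the highest of the activation group with all 4 libraries, next to 0.53 for *Furin*, a protease that activates precursors, and of the fits with 1 library left out it kept that rank only in the fit without sham replicate 1. *Plat*, the tissue plasminogen activator, was at -0.14 and -0.16 after sham operation and at -0.85 and -0.80 after injury, a difference of -0.68 (limma adjusted p = 0.0449). The group listed under inhibition and clearance does not consist of metalloprotease inhibitors alone. In it *Spock2*, a testican of the matrix, had the lowest difference, -1.25, with injury libraries at -1.03 and 0.49. *Thbs1*, thrombospondin, had the highest, 0.98, and neither was called (limma adjusted p = 0.155 and 0.0899). The value of *Spock2* was -0.49 without injury replicate 1 and -2.01 with injury replicate 2 left out, and it was not the lowest of the group without injury replicate 1 or without sham replicate 2. The difference of *Thbs1* ranged from 0.64 to 1.31 with 1 library left out.

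Genes whose products ADAM proteases release from the cell surface gave 5 calls among 23, 3 higher and 2 lower, where 7.43% of all genes were called. *Trem2*, a receptor of macrophages, was at -1.67 and -1.70 after sham operation and at 0.30 and -0.03 after injury, a difference of 1.82 (SE 0.16, limma adjusted p = 0.0285). *Cd44*, the hyaluronan receptor, and *Csf1r*, the receptor of the macrophage growth factor CSF1, were also called. *Cd44* was at -1.25 and -0.77 after sham operation and at 0.65 and 0.25 after injury, a difference of 1.46 (limma adjusted p = 0.0318). *Csf1r* was at -1.20 and -1.31 after sham operation and at 0.36 and -0.22 after injury, a difference of 1.33 (limma adjusted p = 0.0344). *Dll1*, a Notch ligand, was at 1.5 and 0.96 after sham operation and at -0.49 and -0.39 after injury, a difference of -1.67 (SE 0.21, limma adjusted p = 0.0285). *Tgfa*, a ligand of the EGF receptor, was at 1.13 and 1.13 after sham operation and at -0.31 and -0.38 after injury, a difference of -1.47 (SE 0.13, limma adjusted p = 0.0285). *Tnf*, the substrate that gave ADAM17 its other name, was at -1.61 and -0.71 after sham operation and at 1.72 and 0.05 after injury. Its difference of 2.05 was not called (limma adjusted p = 0.0907), and it became 1.21 when injury replicate 1 was left out and 2.88 when injury replicate 2 was. Of the proteoglycans cleaved by the *Adamts8*, *Adamts1* and *Adamts5* group, 4 were sought and *Vcan* (versican) was analysed, at -0.87 and -0.21 after sham operation and at 0.25 and -0.06 after injury, a difference of 0.63 (limma adjusted p = 0.176), which ranged from 0.30 to 0.96 with 1 library left out. Without 1 sham library none of the 48 regulators and substrates was called by limma, with 15 and 20 at an unadjusted p-value under 0.05 without sham replicate 1 and without sham replicate 2, where 1960 and 2553 of all genes were. Without injury replicate 1, 2 were called, and without injury replicate 2, 18 were, in fits that called 284 and 1790 of all genes.

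**Figure D4:**
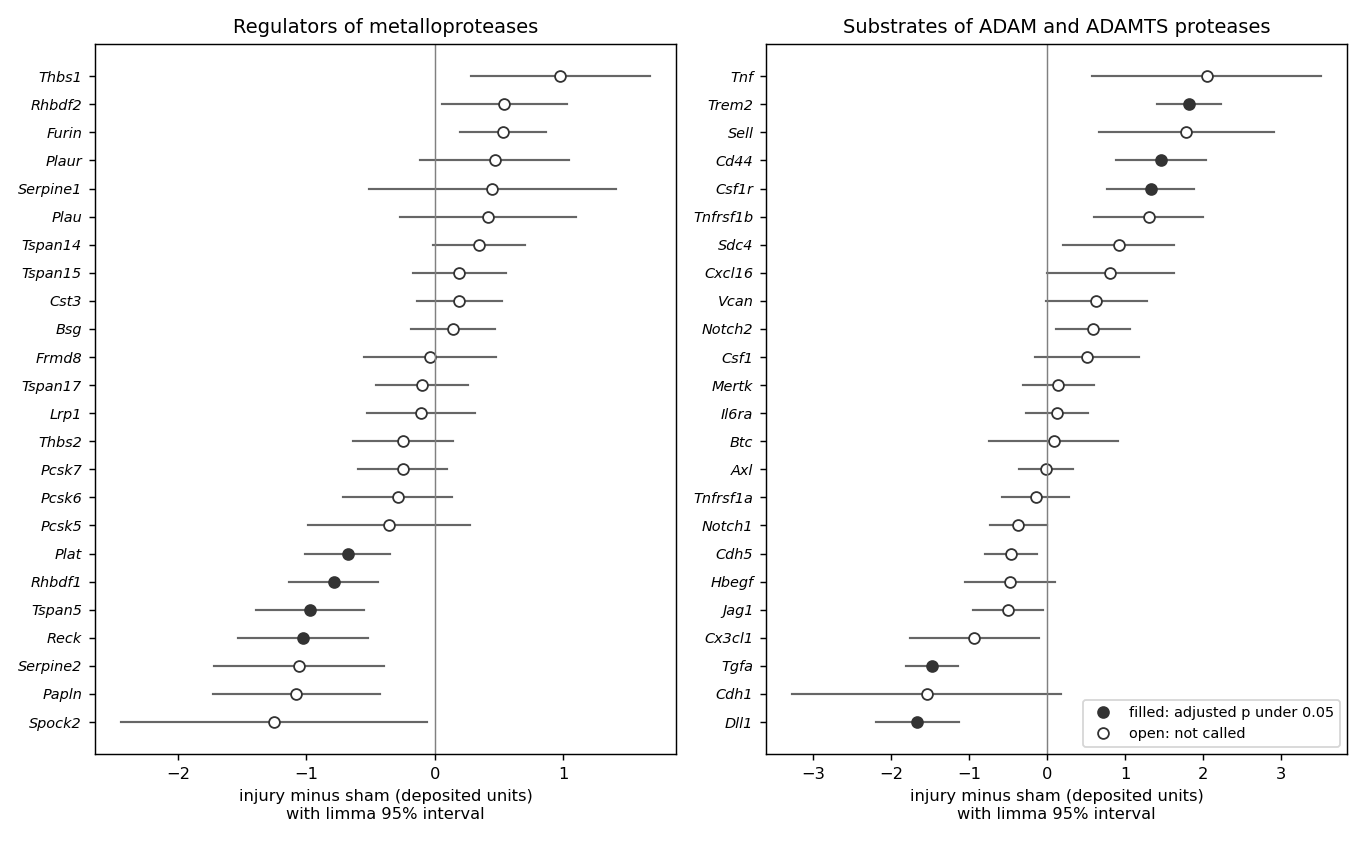
Injury minus sham of 24 regulators of metalloproteases (left) and of 24 substrates (right) in deposited units (x axes, on different scales), with the 95% interval of limma as a line; filled points were called. On the left the filled points, *Plat*, *Rhbdf1*, *Tspan5* and *Reck*, are all below 0, and on the right *Trem2*, *Cd44* and *Csf1r* are above and *Tgfa* and *Dll1* below it.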

How the data were processed

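The authors prepared each bulk RNA-seq library with a stranded mRNA kit, starting from 480 ng of total RNA. Per the labels and methods, reads were checked with FastQC 0.11.8, trimmed with cutadapt 1.18 and Trimmomatic 0.39, aligned to mm9 with STAR 2.6.0a and counted with featureCounts, and differences were tested with DESeq2 1.28.0. The deposited values are a signed, log-like expression score for 12661 genes, from -2.27 to 6.45, and the step from counts to this score and the filter on genes are not given in the sources used here. Read depth is unknown, so precision rests on the spread between 2 libraries per group.

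Injury was compared with sham by limma 3.58.1 in R 4.3.3 (lmFit, eBayes without trend, group as the only term, 4 libraries, two-sided), with Benjamini-Hochberg adjustment over all 12661 genes. With 2 residual degrees of freedom limma added 3.48 prior degrees of freedom. An exact permutation test of 1 gene cannot go below p = 0.333 here. The test was tested on simulated data. No filter was applied. The members, the lists of regulators, substrates and cell markers and the tests were chosen with earlier results of these data known. Every member is named, and of the regulators and substrates those called and the highest and lowest of each list. Further list members given only by counts are named where a count or a rank turned on them, after their values were seen. Coordinates are those of GENCODE on NCBIM37 (mm9). Alternatives were a replicate block, each library left out, quantile normalization, columns scaled to one spread or centred, a robust prior, identical genes counted once, an adjusted p-value under 0.1 and a minimum difference of 1 unit. Summaries were computed in Python 3.11.15 (numpy 2.4.6, pandas 2.3.3) and drawn with matplotlib 3.10.9.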

Additional observations from a re-analysis of the deposited data

How the results depend on the processing

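The directions of the 45 members were the same in the alternatives fitted to all 4 libraries. Of these, only quantile normalization and the scaling or centring of columns can change a difference. The 6 called members kept their direction in every alternative run. In the fits without 1 library this was fixed in advance, since the groups of these members do not overlap. Their calls were all lost without either sham library, and some were lost without injury replicate 1. Those fits also called fewer genes over the whole table. With single libraries left out, the number of genes called by limma ranged from 0 (without sham replicate 1) to 1790 (without injury replicate 2), against 941 with all 4 libraries. Called members ranged from 0 to 15, those higher from 0 to 5 and those lower from 0 to 10, and called regulators and substrates from 0 to 18. By family the ranges were 0 to 2 for ADAM, 0 to 4 for ADAMTS, 0 to 1 for ADAMTS-like, 0 to 6 for MMP and 0 to 2 for TIMP. With 1 library left in a group, that library is assumed to vary like the others. In the same fits 7 uncalled members changed sign: *Adam9* (-0.065 to 0.14), *Adamts7* (-0.28 to 0.19), *Adamts4* (-0.036 to 0.86), *Adamts3* (-0.11 to 1.05), *Mmp23* (-0.61 to 0.066), *Mmp25* (-0.34 to 0.24) and *Mmp11* (-0.35 to 0.40). With quantile normalization, and also with columns scaled to one spread, where 1061 and 1095 of all genes were called, 9 members were called, 6 of them lower, and of the 9 the MMP genes were 4 and the TIMP genes 1. At an adjusted p-value under 0.1 the counts were 2317 genes and 12 members, 9 lower and 3 higher, and 17 regulators and substrates, and in both directions together the 12 were 2 ADAM, 3 ADAMTS, 1 ADAMTS-like, 5 MMP and 1 TIMP genes. With a minimum difference of 1 unit 591 genes and 5 members were called, with 2 ADAMTS genes and 6 regulators and substrates. The cause of these shifts was not tested. Depth limits could not be set, since the values carry no counts.

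Replicate numbers are shared by the sham and injury labels, but nothing says that they mark a shared animal or day. Deviations of same-numbered libraries had a correlation of -0.094. With 2 libraries per group this correlation cannot decide whether same-numbered libraries share more than a number. With the replicate block 684 genes were called by limma and 4 members, 0 ADAM, 1 ADAMTS and 3 MMP genes, of which 2 were higher and 2 lower. *Adam8*, *Adamts1* and *Adamts10* were then not called (adjusted p = 0.0523, 0.0535 and 0.0539 from limma) and *Mmp28* was (adjusted p = 0.0435 from limma).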
